A study of Mus musculus with 10 samples.

Results

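The genes described here encode the translation factors and the aminoacyl-tRNA synthetases of the mouse. They were picked out by their symbols, in a set proposed with earlier results of these data known: protein-coding genes whose symbol starts with Eif or Eef and a digit, and the synthetases named by the amino acid they charge (Wars, Dars, Tars2 and so on). The rule found 107 genes, of which 5 on chromosome 8 and 6 on chromosome 11 were not analysed here, and left 96 of 19235 protein-coding genes on the chromosomes used. Of these 96 genes, 65 had an Eif or Eef symbol and 31 were synthetases. The 65 include kinases, inhibitors and modifying enzymes that act on the factors, and 1 readthrough gene.

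The study mapped HA-tagged SETα and SETβ, the 2 isoforms of the histone chaperone and phosphatase inhibitor SET, on the chromatin of mouse embryonic stem cells by ChIP-seq, an assay that sequences the DNA held by an antibody. All cells derived from KH2, an embryonic stem cell line built for doxycycline-inducible transgenes, and carried a pBS31 construct with HA-SETa or HA-SETb. In 2 groups the endogenous SET gene was knocked out (SETα addback and SETβ addback), and in the other 2 no knockout is given in the labels, so the tagged protein is labelled an overexpression (SETα overexpression and SETβ overexpression). All 4 groups received doxycycline at 1 µg/ml for 24 h, were fixed with DSG and then formaldehyde, and were precipitated with an HA antibody. The cells were grown on mouse embryonic fibroblasts, which were depleted before the harvest. A separate line stands behind every group, with 2 libraries from it, and no label says that the libraries came from separate cultures, so the spread between them may be technical. The difference between isoforms, or between knockout and wild type SET, cannot be told apart from a difference between lines. The 2 uninduced knockout samples were not analysed here, so no background from cells without the tagged protein was set beside the values, and whether those samples served as the control in peak calling is not given in the sources used here. Peak lists hold no expression values, so the identity of the cells was not checked against marker genes.

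Initiation factors bring the initiator tRNA and the small ribosomal subunit to the start codon of an mRNA, elongation factors deliver the following tRNAs and move the ribosome along, and each synthetase loads an amino acid onto its tRNAs. Cytoplasmic and mitochondrial ribosomes use largely separate synthetases, and in the mouse symbols the mitochondrial enzyme usually ends in 2. Nearly all of these genes are expressed in every growing cell, and embryonic stem cells are known to adjust protein synthesis as they leave the pluripotent state.

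A gene was said to have a peak where a peak interval reached within 1 kb of either end of the gene. Each library has a list of peaks of its own, with a fold enrichment, a −log10 p and a −log10 q that are the authors' values for that peak. Each group also has a list of peaks that recurred between its replicates by the irreproducible discovery rate (IDR). The lists of the SETα addback libraries held 22176 and 15701 peaks, those of the SETβ addback libraries 2518 and 9768. The overexpression lists held 4807 and 7675 peaks for SETα and 1343 and 2869 for SETβ. Fold values are each on the scale of their own library and are given to describe its peaks, which were ranked within a library by −log10 p.

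Sequences are shown for 6 members with strong peaks in both addback groups, because the IDR peaks of both groups cover the whole of each stretch. RefSeq promoter entries matched 72 of the 96 members. Each line gives the 170 bases before the annotated gene start and the 30 bases after it (GRCm38.p6, RefSeq, 5′ to 3′ on the strand of the gene). Capitals mark CCGGAAG, the core bound by many ETS factors, and GGGCGG, the GC box bound by SP factors, on either strand. A match of letters is a description and not a binding site. The positions are Eif1ad chr19:5366643-5366842 (plus strand), Eif2s3x chrX:94212622-94212821 (minus strand), Eif3m chr2:105016998-105017197 (minus strand), Eif4a2 chr16:23107298-23107497 (plus strand), Eif4e2 chr1:87213741-87213940 (plus strand) and Eef1b2 chr1:63176661-63176860 (plus strand).
Eif1ad: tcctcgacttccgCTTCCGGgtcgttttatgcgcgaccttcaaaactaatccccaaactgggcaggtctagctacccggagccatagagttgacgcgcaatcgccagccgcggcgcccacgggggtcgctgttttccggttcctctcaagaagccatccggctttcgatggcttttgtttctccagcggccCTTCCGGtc
Eif2s3x: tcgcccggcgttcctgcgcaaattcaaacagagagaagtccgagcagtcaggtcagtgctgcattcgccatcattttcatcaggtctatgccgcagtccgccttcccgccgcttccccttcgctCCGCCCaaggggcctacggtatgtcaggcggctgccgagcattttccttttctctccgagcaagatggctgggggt
Eif3m: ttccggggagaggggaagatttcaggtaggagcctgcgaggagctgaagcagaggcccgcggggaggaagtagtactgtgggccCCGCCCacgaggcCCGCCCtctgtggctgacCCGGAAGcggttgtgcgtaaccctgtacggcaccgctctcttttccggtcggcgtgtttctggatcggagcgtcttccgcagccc
Eif4a2: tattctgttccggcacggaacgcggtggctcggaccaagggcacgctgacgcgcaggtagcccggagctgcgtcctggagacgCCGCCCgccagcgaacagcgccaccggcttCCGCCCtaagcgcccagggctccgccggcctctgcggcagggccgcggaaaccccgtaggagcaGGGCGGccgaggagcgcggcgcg
Eif4e2: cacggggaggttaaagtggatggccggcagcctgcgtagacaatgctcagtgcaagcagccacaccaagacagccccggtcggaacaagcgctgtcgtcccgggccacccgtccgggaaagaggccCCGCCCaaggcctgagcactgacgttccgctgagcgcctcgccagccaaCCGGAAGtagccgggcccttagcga
Eef1b2: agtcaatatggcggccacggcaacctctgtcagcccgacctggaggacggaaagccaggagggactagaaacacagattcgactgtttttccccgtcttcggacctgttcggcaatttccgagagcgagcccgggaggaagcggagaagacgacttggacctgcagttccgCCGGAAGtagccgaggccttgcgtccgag

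For comparison, 2 members of like role without a peak in any of the 8 libraries are shown over the same stretch. Eif2s3y is the Y-linked copy of Eif2s3x, and Eif4e encodes the main cap-binding protein, to which Eif4e2 is related. They lie at Eif2s3y chrY:1010425-1010624 (plus strand) and Eif4e chr3:138526021-138526220 (plus strand).
Eif2s3y: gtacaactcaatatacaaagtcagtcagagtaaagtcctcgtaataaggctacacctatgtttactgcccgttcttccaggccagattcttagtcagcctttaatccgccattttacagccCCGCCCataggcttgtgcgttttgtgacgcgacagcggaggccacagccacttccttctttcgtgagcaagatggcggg
Eif4e: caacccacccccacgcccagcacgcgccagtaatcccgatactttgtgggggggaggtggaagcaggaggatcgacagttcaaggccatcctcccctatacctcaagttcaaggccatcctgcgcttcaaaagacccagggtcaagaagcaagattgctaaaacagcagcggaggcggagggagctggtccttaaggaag

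CCGGAAG was found in the printed stretch of Eif1ad, Eif3m, Eif4e2 and Eef1b2 and not in that of Eif2s3x or Eif4a2. In Eif1ad it started at base -157 before the gene start and again at base 22 after it. In Eef1b2 it started at base 2 and in Eif4e2 at base 6 after the start. In Eif3m it started at base -55. Eif2s3x and Eif2s3y each held a GC box close to the start, at base -46 and base -49. The printed stretch of Eif4e held neither set of letters.

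Peaks at the members were frequent in the addback libraries and rare in the overexpression libraries. In SETα addback, 71 members (74.0%) had a peak in replicate 1 and 58 (60.4%) in replicate 2, beside 34.3% and 31.8% of all protein-coding genes. In SETβ addback, 27 members (28.1%) had a peak in replicate 1 and 48 (50.0%) in replicate 2, beside 8.41% and 18.4% of all genes. The mean share of members was 67.2% ± 9.58 (SD, n = 2) in SETα addback and 39.1% ± 15.5 (SD, n = 2) in SETβ addback. In each of the 4 addback libraries the share of members was above the share of all genes, by 1.9 to 2.16 times for SETα and 2.72 to 3.35 times for SETβ. The SETα libraries both lay above both SETβ libraries, and they also had the longest lists of peaks, so the lower count of members for SETβ moved together with a shorter list. Whether the isoforms differ was not tested.

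In SETα overexpression, 0 members in replicate 1 and 1 in replicate 2 had a peak, beside 0.983% and 1.9% of all genes. In SETβ overexpression, 1 member in replicate 1 and 5 in replicate 2 had a peak, beside 0.338% and 1.85% of all genes. These were Eif2s2 for SETα and Eif5b, Farsb, Eef1a1, Iars2, Eif3j1 and Eif3l for SETβ, each in 1 library (named here after their values were seen). None of the 7 had a q of at most 0.05 in that library, a mark that 0.187% and 0.697% of all genes reached for SETα and 0.0208% and 0.104% for SETβ. The count of members with a peak in both replicates was 0 in either overexpression group, beside 0.879% of all genes for SETα and 0.187% for SETβ, so it was near the background. The shares of all genes were low in the overexpression libraries too, so the low counts are not particular to these genes. In SETβ overexpression the share of members, 1.04% and 5.21%, was 2.82 to 3.08 times that of all genes. That ratio rests on 1 and 5 members. Without chromosome 6 the mean share of all genes in SETα overexpression was 0.486% in place of 1.44%, and that of members 0.543% in place of 0.521%, so whether the members lie below or above all genes there depends on that chromosome.

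**Figure D1:**
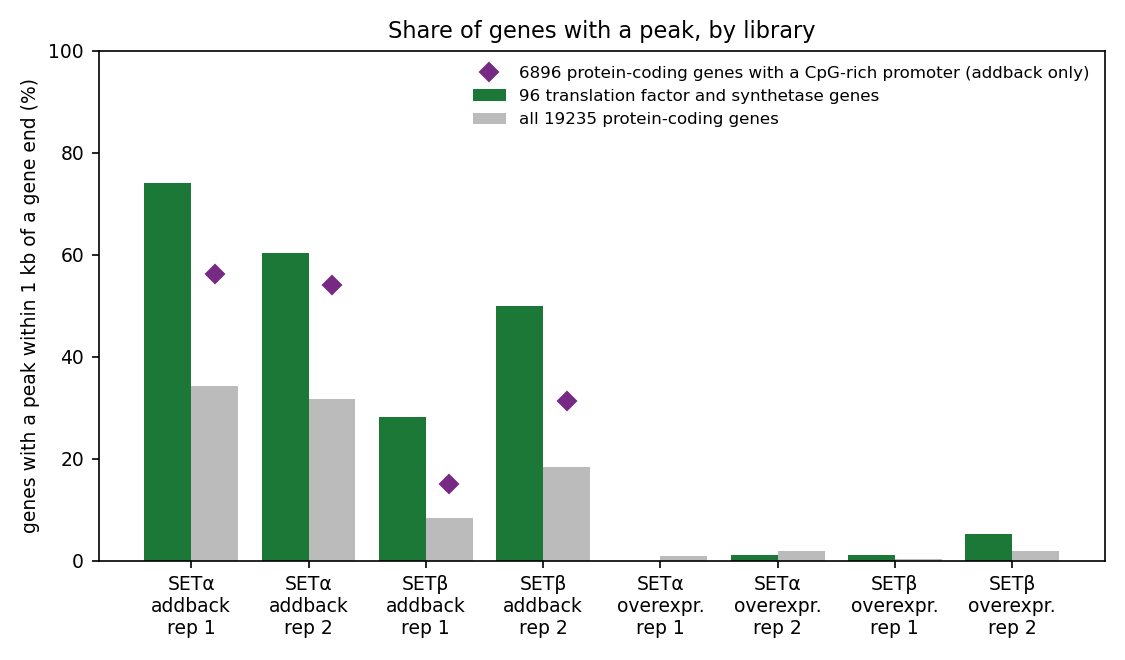
Share of genes with a peak within 1 kb of a gene end (y axis, %) in each of the 8 libraries (x axis), for the 96 members (green bars), all 19235 protein-coding genes (grey bars) and, in the addback libraries, the 6896 genes with a CpG-rich promoter (diamonds). The members stand above both other values in all 4 addback libraries, from 28.1% to 74.0%, and at or under 5.21% in the overexpression libraries.

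In the 4 addback libraries, the members' share among strong peaks was a larger multiple of the share of all genes than over all peaks, while the difference in percentage points was smaller. With peaks of q at most 0.05, 49 and 45 members were called in SETα addback (22.0% and 24.2% of all genes) and 17 and 21 in SETβ addback (4.85% and 7.39% of all genes). With a −log10 q of at least 5, the counts were 22 and 15 members for SETα (3.88% and 4.52% of all genes) and 12 and 14 for SETβ (2.69% and 2.62% of all genes). At that threshold 0 members were called in the overexpression libraries, where 0.0052% and 0.0624% of all genes were for SETα and 0.0% and 0.0052% for SETβ. To set lists of unequal length side by side, the strongest 1343 peaks of each were taken, which is the length of the shortest list. They touched 25 and 17 members for SETα addback (4.65% and 5.77% of all genes) and 18 and 17 for SETβ addback (5.39% and 4.96% of all genes). In overexpression they touched 0 and 0 members for SETα (0.535% and 0.645% of all genes) and 1 and 2 for SETβ (0.338% and 0.681% of all genes). The shares of all genes were also alike between the isoforms once the lists had equal length. The 500 strongest peaks of the addback lists touched 14.6% and 10.4% of the members for SETα and 12.5% and 14.6% for SETβ, and 2.31% to 2.64% of all genes. Those of the overexpression lists touched 0 members for SETα and 1.04% and 0.0% of the members for SETβ, and 0.135% to 0.317% of all genes.

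By IDR, 12 members had a peak in SETα addback and 12 in SETβ addback (12.5% each, beside 2.78% and 2.62% of all genes). The lists shared 11 members (2.18% of all genes were in both), which is 11 of 12 in either direction. Of all genes, 419 were in both, out of 534 for SETα and 504 for SETβ, so most genes of either list were shared too. Eif3k was in the SETα list alone and Eif3f in the SETβ list alone, which makes 13 members in either (3.22% of all genes). The IDR lists of the overexpression groups touched 0 members, beside 0.0676% of all genes for SETα and 0.026% for SETβ.

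Across the 4 addback libraries, 23 members (24.0%) had a peak in every library, beside 5.15% of all genes. They were Eif1ad, Eif1b, Eif2s1, Eif2s3x, Eif5, Eif5b, Eif3f, Eif3g, Eif3i, Eif3k, Eif3m, Eif4a2, Eif4e2, Eef1b2, Eef1d, Eef1akmt2, Eef1akmt4, the readthrough gene Eef1akmt4-ece2, Iars2, Mars2, Dars, Gars and Wars. A further 14 members had a peak in 3 libraries, 28 in 2 and 14 in 1 (7.23%, 15.5% and 19.6% of all genes), and 17 had none (52.5% of all genes had none). Both SETα libraries but neither SETβ library listed 15 members (15.6%), beside 10.1% of all genes. The opposite pattern was found at 0 members, beside 0.187% of all genes. Of the genes with an Eif or Eef symbol, 18 of 65 (27.7%) were in all 4 libraries, and of the synthetases 5 of 31 (16.1%). The counts by role that follow stand against the same shares of all genes, 34.3% and 31.8% in the SETα replicates, 8.41% and 18.4% in the SETβ replicates and 5.15% in all 4, and differences between roles were not tested.

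**Figure D2:**
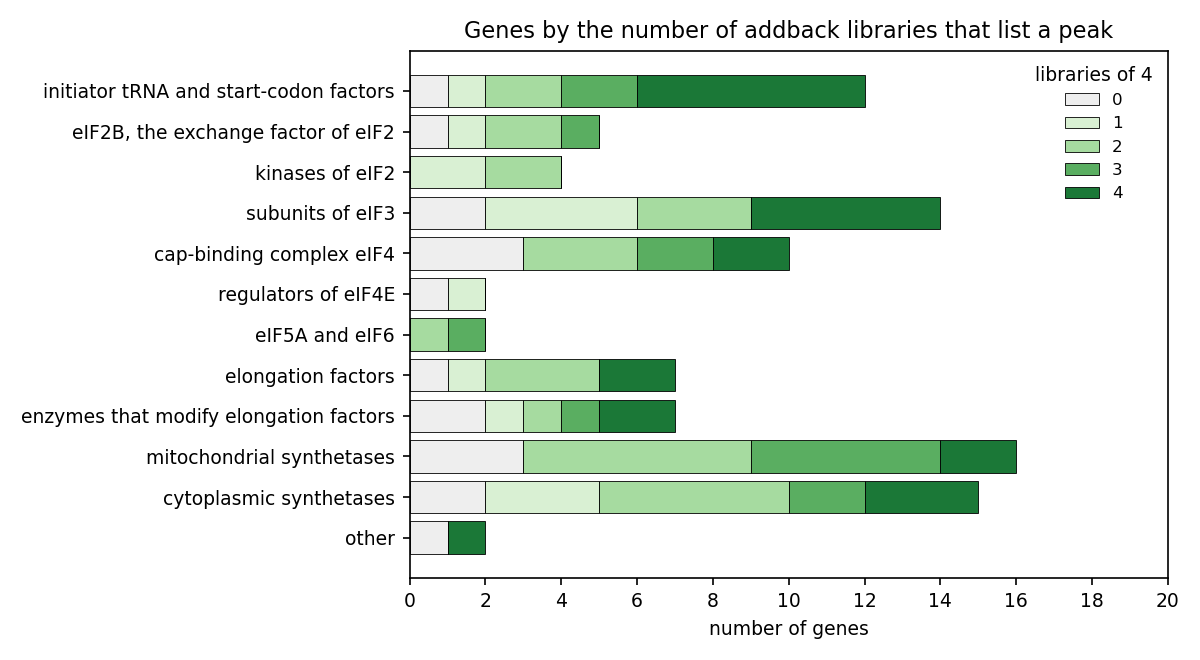
Number of genes (x axis) in each role (y axis), shaded by how many of the 4 addback libraries list a peak at the gene. The group of initiator tRNA and start-codon factors, which also holds Eif1ad and Eif5b, has 6 of 12 genes with a peak in all 4 libraries. The groups of eIF2B, the eIF2 kinases, the regulators of eIF4E and the pair eIF5A and eIF6 hold none. Of all genes, 5.15% are in all 4.

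Of the named roles, the group of initiator tRNA and start-codon factors had the largest share of genes listed in all 4 addback libraries. Roles were assigned by symbol, so this group also holds Eif1ad, whose peak is shared with Banf1, and Eif5b, which joins the ribosomal subunits. Of 12 genes, 11 and 9 had a peak in SETα addback and 6 and 9 in SETβ addback, and 6 were in all 4 libraries. Eif2s3x on chromosome X encodes the γ subunit of eIF2, which binds the initiator tRNA. Its fold was 13.1 and 16.6 in the SETα replicates and 12.8 and 13.1 in the SETβ replicates, with −log10 p of 47.5, 53.3, 49.2 and 46.0. The summit lay 250 to 284 bases before the gene start in all 4 libraries, upstream of the GC box printed above. Its Y-linked counterpart Eif2s3y, printed above, was listed in none of the 8 libraries. The other eIF2 subunits had weaker peaks, Eif2s1 (the α subunit, the target of the stress kinases) in all 4 addback libraries with folds of 2.53 to 4.23, and Eif2s2 (the β subunit) in both SETα libraries alone.

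Eif1ad encodes a small protein with a domain like that of eIF1A, and it gave the strongest member peak of both SETα lists. Its fold was 18.4 and 19.8 in SETα addback, at rank 18 and 30 of the lists, and 10.9 and 9.49 in SETβ addback, at rank 66 and 58. The summits lay 3 to 31 bases before the gene start. The gene Banf1, which encodes a DNA-binding protein of the nuclear envelope, has an end within 1 kb under the same peak, so the peak cannot be assigned to 1 of the pair. Eif1b, a close relative of the start-codon factor eIF1, had a fold of 7.22 and 5.85 in SETα addback and 7.11 and 6.86 in SETβ addback. Eif5, which activates the GTPase of eIF2, and Eif5b, which joins the ribosomal subunits, were also listed in all 4 addback libraries. The Eif5 peaks were weak in SETβ addback, with folds of 2.52 and 2.55 and a q above 0.05 in both. The q was also above 0.05 in both SETβ libraries at Eif5b, with −log10 q of 1.12 and 0.416. The same held at Eif2s1, with −log10 q of 0.865 and 1.23.

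Other genes set the activity of eIF2. eIF2B reloads eIF2 with GTP, and of its 5 subunit genes 4 and 2 had a peak in SETα addback and 1 and 1 in SETβ addback, with 0 in all 4 and Eif2b2 in none. Of the 4 kinases that phosphorylate eIF2 under stress, 2 and 3 had a peak in SETα addback and 0 and 1 in SETβ addback. Eif2ak3, the kinase of the unfolded protein response, had a fold of 3.27 and 3.38 in SETα addback and no peak in SETβ addback. Eif2ak4, the kinase that senses missing amino acids, had a fold of 3.73 in SETα replicate 1 and 2.67 in SETβ replicate 2 and was not listed in the other 2. None of these 9 genes was in an IDR list or in all 4 libraries, and with 2.78%, 2.62% and 5.15% of all genes so listed, a count of 0 among so few genes is near the background.

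eIF3 is the large scaffold on the small ribosomal subunit. Of its 14 genes, 10 and 8 had a peak in SETα addback and 6 in each SETβ library, and 5 were in all 4. Eif3m had a fold of 8.22 and 11.4 for SETα and 10.2 and 8.13 for SETβ, and its summits lay 80 to 172 bases before the start, upstream of the CCGGAAG printed above. Eif3f had a fold of 7.22 and 11.7 for SETα and 11.6 and 11.4 for SETβ, with −log10 p of 18.3 and 31.0 in the SETα lists. It was absent from the SETα IDR list although Dars, with −log10 p of 10.0 and 14.2 in the same libraries, was in it, so its absence there does not go with a weaker peak.

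Eif3i had a fold of 6.47 and 6.5 for SETα and 5.01 and 4.6 for SETβ, under a peak shared with Tmem234. Eif3k had a fold of 5.73 and 5.53 for SETα and 2.87 and 2.89 for SETβ. Its q was above 0.05 in SETβ replicate 2 only, where the −log10 q was 0.82, and its peak also covered an end of the kinase gene Map4k1. Eif3g was in all 4 libraries without an IDR peak. Eif3e and Eif3j2 were in none, and Eif3j2 is a near copy of Eif3j1, so reads could be split between them in a way the sources used here do not describe.

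The eIF4 group recognises the cap of the mRNA and unwinds its leader. Of 10 genes, 6 and 7 had a peak in SETα addback and 2 and 5 in SETβ addback. Eif4a2, which encodes an RNA helicase, had a fold of 14.2 and 18.9 for SETα and 11 and 12.4 for SETβ. Its summits lay 112 to 141 bases before the start, between GC boxes that begin at bases -184 and -87, and further boxes begin at bases -57 and 8. Eif4e2, which binds the cap and is known as a repressor, had a fold of 12.0 and 13.5 for SETα and 12.1 and 11.8 for SETβ, with summits from 30 bases before to 44 bases after the start. Both genes were thus among the strongest of the members in all 4 addback libraries. Eif4e, Eif4e3 and Eif4g3 were listed in no addback library, although peaks at Eif4e3 and Eif4g3 ended 1054 and 1111 bp from a gene end, just outside the window. Of the 2 genes that encode inhibitors of eIF4E, Eif4ebp2 had a peak in SETα replicate 1 alone, with a fold of 4.98, and Eif4ebp3 had none. Eif4a3l1, named for its likeness to the helicase family, was also in none. Eif6, which keeps the ribosomal subunits apart, had folds of 2.7 and 3.23 for SETα and no SETβ peak.

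Elongation factors were covered at 6 and 5 of 7 genes in SETα addback and at 2 in each SETβ library. Eef1b2, which encodes an exchange factor of the tRNA carrier eEF1A, had a fold of 15.7 and 16.3 for SETα and 15.3 and 11.3 for SETβ. It was the strongest member peak of SETβ replicate 1, at rank 30 of 2518 peaks, and its interval also reached an end of Ndufs1, a subunit gene of respiratory complex I. The summits lay 140 to 189 bases after the start. Eef1d, which encodes another exchange factor, was in all 4 libraries with folds from 2.7 to 4.55, and in SETβ replicate 1 the peak was at another end of the gene.

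Eef1a1 and Eef2 had peaks near the far end of the gene. At Eef1a1, which encodes the tRNA carrier itself, the strongest peak at the gene in SETα replicate 1 had a fold of 6.09 and a −log10 q of 22.4 and lay 330 bp from the far end of the gene. In SETα replicate 2 the strongest peak lay 718 bp before the start, with a fold of 3.74, so the replicates placed it at different ends. At Eef2, which encodes the translocase, the strongest peaks of SETα addback lay 543 and 393 bp from the far end, with folds of 3.32 and 2.69, within reach of Dapk3. No SETβ addback peak was listed at Eef1a1 or Eef2, and Eef1g was listed in no library. Eef1g had a peak 1084 bp from a gene end in SETα replicate 1, just outside the window. Of 7 genes for enzymes that modify elongation factors, the methyltransferase genes Eef1akmt2 and Eef1akmt4 were in all 4 libraries. The Eef1akmt4 peak had summits 745 to 816 bases before the start and also reached an end of Alg3 in each library. At Eef1akmt2 the −log10 q was 0.895 and 2.07 in the SETα replicates and 4.53 and 0.416 in the SETβ replicates. Eef1akmt1 and Eef1aknmt were in none.

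The cytoplasmic synthetases were covered at 11 and 7 of 15 genes for SETα (34.3% and 31.8% of all genes) and at 4 and 9 for SETβ (8.41% and 18.4% of all genes). Wars (tryptophan) had a fold of 14.2 and 15.0 for SETα and 9.03 and 6.7 for SETβ, under a peak that also touched an end of Wdr25. Dars (aspartate) had a fold of 4.98 and 6.75 for SETα and 8.49 and 4.7 for SETβ, with summits 391 to 505 bases after the start, inside the gene. Gars (glycine) was in all 4 libraries with folds of 2.66 to 2.99 and a q above 0.05 in each, so its count rests on weak peaks. Iars and Tars were in none.

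The mitochondrial synthetases were covered at 12 and 10 of 16 genes for SETα, and at 2 and 11 for SETβ, so the SETβ replicates differed most in this role. Tars2 (threonine) had the strongest peak of any synthetase by −log10 p, at 52.4 and 50.8 for SETα and 85.7 and 62.7 for SETβ. Its fold was 14.0 and 14.6 for SETα and 17.5 and 15.2 for SETβ, and its summits lay within 32 bases of the RefSeq start, which is 1388 bp inside the outermost end of the gene. The peak of SETβ replicate 1 ended 1083 bp from that outer end and was not counted by the 1 kb rule, while those of the other libraries ended 947, 964 and 997 bp from it and were counted. Mars2 (methionine) was in all 4 libraries with folds of 4.44 and 3.65 for SETα and 5.64 and 3.88 for SETβ, without an IDR peak.

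Iars2 (isoleucine) was in all 4 libraries under a peak shared with Bpnt1. Hars and Hars2, the histidine enzymes of cytoplasm and mitochondrion, stand head to head and shared 1 peak in both SETα libraries and SETβ replicate 2. Lars2 (leucine) had folds of 1.93, 1.45 and 1.5 in 3 libraries, the lowest of any member there, with −log10 q of 8.07, 0.509 and 1.06, at a site 656 to 683 bp from the far end of the gene. Aars2, Rars2 and Wars2 were in none.

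**Figure D3:**
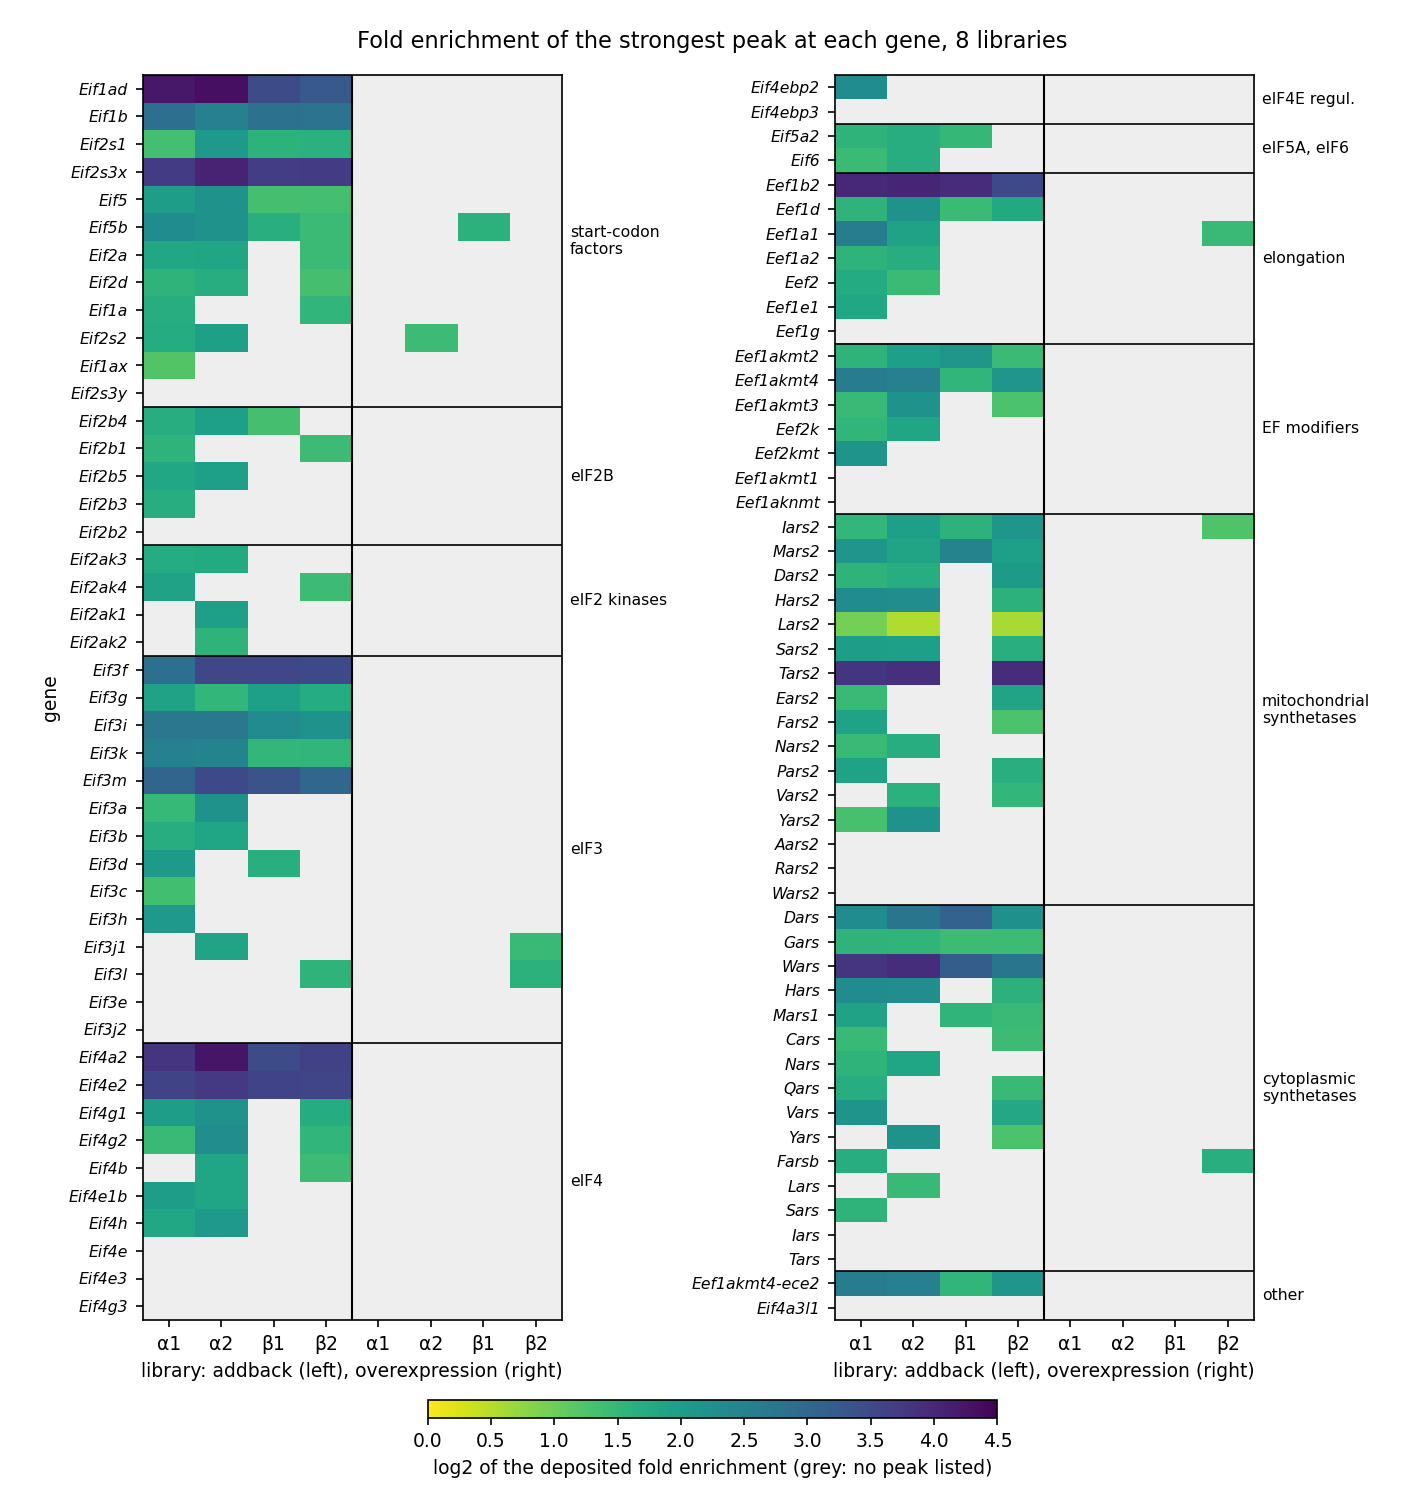
log2 of the deposited fold enrichment of the strongest peak at each of the 96 genes (rows, by role) in the 8 libraries (columns, α for SETα, β for SETβ, with the replicate number; addback left of the line, overexpression right of it), with grey where no peak is listed. The darkest rows belong to genes of the IDR lists, and the overexpression columns hold 7 coloured cells in all.

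**Figure D4:**
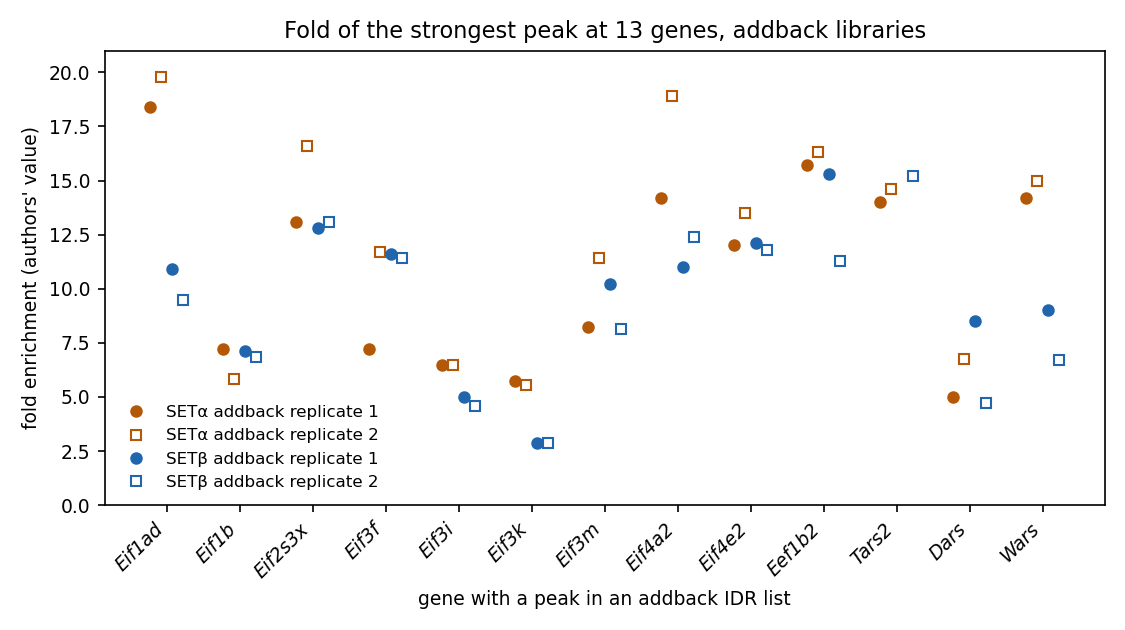
Fold enrichment as deposited (y axis) of the strongest peak at the 13 genes with an addback IDR peak (x axis, by role) in the 4 addback libraries. Each library has a scale of its own, Tars2 in SETβ replicate 1 is not drawn because its peak lies outside the 1 kb window, and the values run from 19.8 at Eif1ad to 2.87 at Eif3k.

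Peaks at the members lay mostly at gene starts. RefSeq promoter entries gave the strand, and so the end at which the gene starts, for 72 members and for 15496 of all genes. The start used here is that outermost gene end, which can differ from the start of the promoter entry, as at Tars2. Of the 72, 49 and 44 had a peak within 1 kb of the start in SETα addback, beside 31.9% and 30.1% of all genes. In SETβ addback 24 and 33 had one, beside 8.07% and 17.0% of all genes. At the other end of the gene 10 and 6 members had a peak for SETα (5.83% and 4.57% of all genes) and 0 and 5 for SETβ (0.6% and 2.25% of all genes). The median summit of the strongest peak lay 148 and 137 bp into the gene for SETα, and at -16 and 49.5 bp for SETβ. At all other genes with a peak the medians were 221.5, 192, 100.5 and 163.5 bp, further into the gene in each of the 4 libraries.

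**Figure D5:**
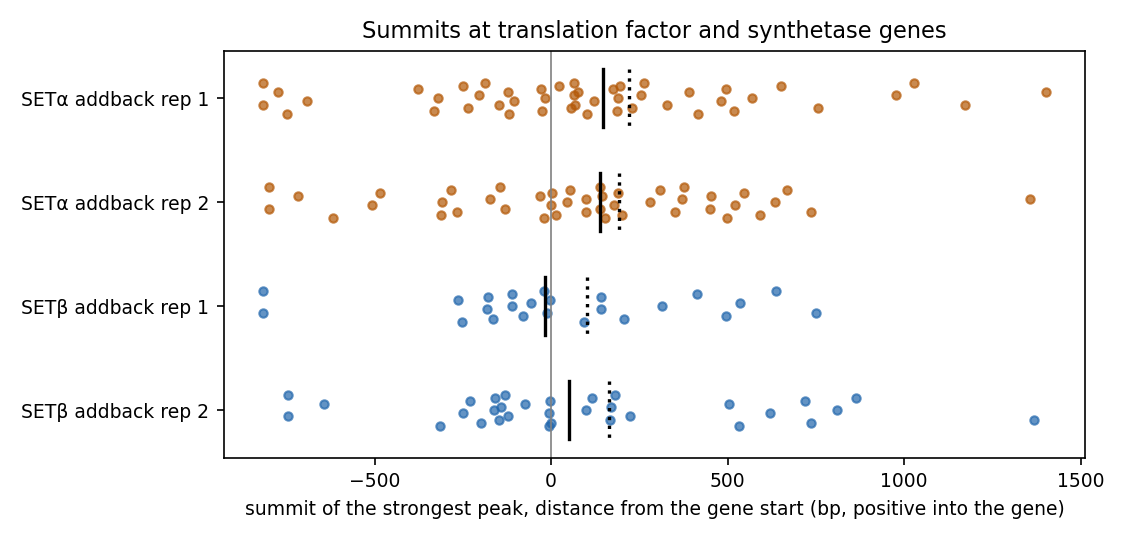
Distance of the summit of the strongest peak from the gene start (x axis, bp, positive into the gene) for members with a known start in the 4 addback libraries (rows), with the median of the members (solid bar) and of all other protein-coding genes with a peak (dotted bar). Each solid bar is left of its dotted bar. Summits beyond 1500 bp, such as those at the far end of Eef1a1 and Lars2, are not drawn but count in the medians. The start is the outermost gene end on the strand of the gene.

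The promoters of the members were rich in CpG, and CpG-rich promoters carried more peaks in all genes too. A promoter (250 bases before to 50 after the start) counted as CpG-rich with an observed to expected CpG ratio of at least 0.6 and a GC share of at least 50%. By this rule 57 of 72 member promoters (79.2%) were CpG-rich, beside 44.5% of all promoters. Among genes with a CpG-rich promoter, members had a peak in 75.4% and 64.9% for SETα and 36.8% and 52.6% for SETβ. All genes of that class had a peak in 56.2%, 54.1%, 15.1% and 31.4%. In all 4 libraries were 17 of the 57 members (29.8%), beside 9.28% of CpG-rich genes. The 17 and the 57 count the shared promoter of Eef1akmt4 and Eef1akmt4-ece2 as 2. All other promoters are called CpG-poor here, which includes those that missed the GC share alone. Of the 15 members with a CpG-poor promoter, 3 (20%) were in all 4, beside 1.9% of CpG-poor genes. Of these 3, Eif3f (CpG ratio 0.81, GC 46.0%) and Eif3k (1.03, 49.7%) failed on GC alone. Eef1akmt2 (0.59, 54.0%) failed on the ratio. The 15 members with a CpG-poor promoter had a peak in 73.3% and 60% for SETα and 20% and 40% for SETβ, beside 16.7%, 14.6%, 3.21% and 8.15% of CpG-poor genes. In both promoter classes the members' share was above that of all genes of the class in each of the 4 libraries. Members and all genes of a class were not matched for CpG ratio.

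Members also stood close to other genes more often than most. Another coding gene had an end within 1 kb of an end of 46 members (47.9%), beside 23.7% of all genes. Of 50 members without such a neighbour, 10 (20%) were in all 4 addback libraries, beside 3.49% of all genes without one. Eif2s3x, Eif4e2, Dars, Eif1b and Eif3f of the IDR lists had no such neighbour, while Eif1ad, Eef1b2, Eif3i, Eif3k and Wars shared their peak with one.

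CCGGAAG on either strand was present in 21 of 72 member promoters (29.2%), over all 300 bases, beside 11.7% of all promoters and 20.2% of CpG-rich ones. Among members it was in 8 of 20 promoters (40.0%) of genes in all 4 addback libraries, 11 of 41 (26.8%) of those in 1 to 3 and 2 of 11 (18.2%) of those in none. All genes held it at 40.7% where all 4 libraries listed a peak and at 5.56% where none did. Among CpG-rich promoters alone, these shares were 45.0% and 15.2%. Of the members in an IDR list with a promoter entry, 5 of 11 held it, namely Eef1b2, Eif4e2, Eif3m, Eif1b and Eif1ad. GGGCGG was in 72.2% of member promoters, beside 45.7% of all and 77.0% of CpG-rich promoters. CACGTG, the E-box bound by MYC and related factors, was in 16 member promoters (22.2%), beside 7.74% of all and 11.6% of CpG-rich promoters. It was present in 5 of the 20 promoters in all 4 libraries (25%, beside 8.97% of all genes of that class). It was also in 3 of the 11 in none (27.3%, beside 5.8%). Eef1akmt4 and Eef1akmt4-ece2 share a start, so 1 promoter is counted as 2 in the 5 and the 16, and in the 20 and 72 promoters. Motifs labelled NFY, NRF1, ZBTB33-like palindrome, CARE and YY1 were also counted. NFY was in 25 member promoters (34.7%, the shared one as 2), beside 39.0% of all and 36.9% of CpG-rich promoters. NRF1 was in 1 (1.39%, beside 1.33% and 2.64%) and the palindrome in 0 (beside 0.703% and 1.42%). CARE was in 5 (6.94%, beside 3.83% and 1.28%) and YY1 in 8 (11.1%, beside 6.26% and 6.8%).

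Genes of the pathway outside the symbol rule were counted in the same way. In 6 lists of 74 genes, 43 and 42 had a peak in SETα addback (34.3% and 31.8% of all genes) and 12 and 31 in SETβ addback (8.41% and 18.4% of all genes), and 7 (9.46%) were in all 4 libraries, beside 5.15% of all genes. Tufm and Gfm2, factors of mitochondrial elongation and ribosome recycling, and Mtor, the kinase that couples growth signals to translation, were in both addback IDR lists. These 3 of the 74 stand beside 2.18% of all genes in both lists. Of 13 genes for termination, recycling and ribosome rescue, 1 was in all 4 libraries, and the same count held for the 15 mRNA-binding and helicase partners of initiation and for the 11 synthetase partners. Of 10 mitochondrial translation factors 2 were, and of 11 genes that signal growth to translation 2 were. Of 14 genes of the integrated stress response, the programme that the eIF2 kinases start, 9 had a peak in each SETα library, 0 and 6 in the SETβ libraries, and 0 in all 4. With 5.15% of all genes in all 4 libraries, that 0 is near the background for a list of 14 genes.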

How the data were processed

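The authors deposited peak lists, made from HA ChIP-seq reads with Bowtie2, MACS2 and deepTools on GRCm38 (mm10) per the submitters' processing notes, which give no role for each tool. In each deposited list a peak has a fold enrichment (a ratio), a −log10 p-value and a −log10 q-value, and the lists by group hold peaks kept by IDR from both replicates. The control library, the peak threshold and the numbers of reads are not given in the sources used here, so the depth behind each list is unknown. Chromosomes 8 and 11 were not analysed.

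Genes and symbols came from a RefSeq table of GRCm38.p6, and coordinates were read 1-based. A gene had a peak where an interval overlapped the 1 kb around either gene end by at least 1 bp. Counts of members stand beside those of all 19235 protein-coding genes, as a description with no test, because the genes were chosen with results of these data known. The mean and SD are over 2 libraries. Peaks of a library were ranked by −log10 p. Counting was tested on simulated intervals (Python 3.11.15, pandas 2.3.3, numpy 2.4.6).

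The members, roles, pathway lists and motifs were chosen with earlier results of these data known. Named with values are members in an addback IDR list; members in all 4 addback libraries and members in none are named by role, as are pathway genes in both addback IDR lists. Further members were named after their values were seen, to describe gene ends, weak peaks and shared peaks. Promoters are shown for members in both IDR lists whose promoter lies under the peak, and for 2 without a peak. Eif1b qualified and was left out for its rank, and Tars2 because its listed start is not the gene end used for counting. The alternatives were windows of 250 bp and 2.5 kb, the gene start alone, the summit in place of the interval, stricter q and IDR thresholds, equal list lengths, each replicate left out, chromosome 6 left out and, chosen after seeing the data, 1 of each pair of members that share a gene end.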

Additional observations from a re-analysis of the deposited data

How the results depend on the processing

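Of 76 recomputed values 8 moved, a share by more than the SD of its 2 replicates or a count of genes by over 1.5 times. The overexpression shares rest on 0 to 5 genes a library, and their SD is close to or above their mean. The mean share of members in SETα addback, 67.2%, was 51.6% with a window of 250 bp. It was 19.3% with a −log10 q of at least 5 and 21.9% with the strongest 1343 peaks of each list. The share of all genes fell as well, from 33.0% to 23.3%, 4.2% and 5.21%. In SETβ addback, 39.1% became 13.5% at that q and 18.2% with the strongest 1343 peaks. The share of all genes there went from 13.4% to 2.66% and 5.18%. In SETβ overexpression, 3.12% became 0.0% at that q, while the share of all genes went from 1.09% to 0.0026%. The 23 members in all 4 addback libraries became 11 at that q and 13 with the strongest 1343 peaks. Of all genes, 5.15% became 2.17% and 2.61%. The q threshold and the equal list lengths keep fewer peaks, and the 250 bp window keeps all peaks in a narrower region. Leaving out a replicate gave 60.4% to 74.0% for SETα addback and 28.1% to 50.0% for SETβ addback. The shares of all genes were then 31.8% to 34.3% and 8.41% to 18.4%. It gave 0.0% to 1.04% for SETα overexpression and 1.04% to 5.21% for SETβ overexpression. For all genes these were 0.983% to 1.9% and 0.338% to 1.85%. The count over the remaining addback libraries was 23 to 34, highest without SETβ addback replicate 1, the library with the shortest list. The share of all genes ran from 5.39% to 10.4% and was highest there too. The IDR counts of 12 and 12 stayed between 10 and 12 under the alternatives run, beside 2.37% to 3.06% of all genes. The overexpression IDR counts stayed at 0, beside 0.0052% to 0.0988% of all genes. Taking 1 of each pair of members that share a gene end left 22 in all 4 libraries. No paired analysis was possible because no label ties the replicate numbers to a shared culture or day, and the counts enter no test here. Presence in a list depends on the unknown depth and threshold, so a gene without a listed peak may hold signal under the threshold. Peaks at shared gene ends cannot be assigned to 1 gene.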

Other observations

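Ribosomal protein genes, the other large gene group of the translation apparatus, were counted in the same way for comparison. Of 75 cytoplasmic ribosomal protein genes, 58 had a peak in each SETα addback library (77.3%, beside 34.3% and 31.8% of all genes), and 20 and 35 had one for SETβ addback (26.7% and 46.7%, beside 8.41% and 18.4%). In all 4 addback libraries were 14 genes (18.7%, beside 5.15%). The addback IDR lists touched 5 of the 75 for SETα and 6 for SETβ (6.67% and 8.0%, beside 2.78% and 2.62% of all genes). In overexpression 0 and 6 of the 75 had a peak for SETα and 0 and 10 for SETβ (13.3% in the last, beside 1.85% of all genes), with q above 0.05 at each. At least 1 overexpression library listed 15 of the 75 genes (20%), beside 7 of the 96 factor and synthetase genes (7.29%) and 3.68% of all genes. Of 65 mitochondrial ribosomal protein genes, 40 and 36 had a peak for SETα and 19 and 29 for SETβ, and 17 (26.2%) were in all 4. The addback IDR lists touched 13 and 14 of these 65, beside 12 and 12 of the 96 factor and synthetase genes. In overexpression 1 and 1 of the 65 had a peak for SETα (0.983% and 1.9% of all genes). For SETβ 0 and 3 had one (0.338% and 1.85% of all genes). At q of at most 0.05, 1 of the 65 was called in each SETα overexpression library, beside 0.187% and 0.697% of all genes. No test of the difference between these groups was run.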
